A study of Homo sapiens with 42 samples.

Results

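The combination of the menin inhibitor VTP-50469 and the MEK inhibitor selumetinib was compared with DMSO at day 6 in OCI-AML3, an established human cell line of acute myeloid leukaemia labelled NPM1c+ (mutant, cytoplasmic nucleophosmin). The 6 libraries that make up the comparison, of 42 in the series, were chosen by their labels alone: 3 of OCI-AML3 given 100 nM VTP-50469 with 100 nM selumetinib to day 6 and 3 of OCI-AML3 given DMSO, the solvent control, to day 6. All genes of the count table entered. 5 further groups of 3 libraries served to place the effect. They were OCI-AML3 with 100 nM VTP-50469 alone at day 6, OCI-AML3 with the combination and with DMSO at day 3, and NOMO1, a KMT2A-rearranged line of the same disease, with the combination and with DMSO at day 6. OCI-AML3 with 100 nM selumetinib alone is given by its levels only, because its time is labelled both as 1 day (treatment text) and, for replicates 2 and 3, as day 3 (titles). The selumetinib group still entered the fits, as did VTP-50469 alone at day 3, and so took part in the estimate of spread. The comparison between lines was fitted on all 42 libraries. It therefore also held NOMO1 with DMSO at day 3, VTP-50469 alone at day 3 and day 6, selumetinib alone and the combination at day 3. How long selumetinib was present in the combination is not labelled, and neither is the culture each library came from, so p-values measure the spread between these libraries, which may be technical. Each disease subtype is represented by 1 cell line.

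Menin is a scaffold protein that tethers the histone methyltransferase KMT2A to chromatin, and leukaemias with mutant NPM1 or rearranged KMT2A depend on it for the expression of HOX genes and their partner MEIS1. VTP-50469 occupies the pocket of menin that binds KMT2A. MEK is the kinase that activates ERK, the last kinase of the RAS pathway, and ERK in turn drives immediate early genes, its own feedback inhibitors, MYC and the entry into S phase. OCI-AML3 also carries an activating NRAS mutation, so this pathway is driven from within the cells.

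The combination libraries at day 6 held 15561248 to 16527185 counts and the DMSO libraries 17258175 to 18837576. Mitochondrial transcripts took 10.8, 14.9 and 11.1% of the counts with the combination and 3.53, 2.48 and 3.71% with DMSO, which is 12.3 ± 2.26% against 3.24 ± 0.67% (SD, n = 3; exact two-sided permutation test, p = 0.10, the smallest that 3 against 3 allows). Low counts were also scarcer. With the combination 2242 to 2885 genes had 1 to 9 counts in a library, against 6339 to 6528 with DMSO, while genes with at least 10 counts numbered 14347 to 14553 and 13752 to 14053. Genes with any count numbered 16742 to 17438 and 20208 to 20482. The part of this in the values of single genes was not tested. Of 11 myeloid identity markers, 10 reached 5 CPM (counts scaled to library size) in DMSO and 10 with the combination. Of 15 erythroid markers, 14 were at 0 in every library of both groups, and without VIM the other 13 epithelial and stromal markers summed to 4.24 to 9.57 CPM with the combination and 0.637 to 1.84 with DMSO. Fewer cells of a kind and less RNA per cell cannot be told apart in such bulk libraries. A similar profile also occurred without drug in the other line. In NOMO1 with DMSO at day 3, mitochondrial transcripts took 17.58, 17.97 and 17.72% of the counts. There 2745, 3672 and 3872 genes had 1 to 9 counts. NOMO1 with DMSO at day 6 held 2.728 to 3.683% and 5641 to 6167 such genes. What set the day 3 libraries apart was not tested. The plot of mitochondrial share and of genes with few counts shows every OCI-AML3 library and none of NOMO1.

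**Figure D1:**
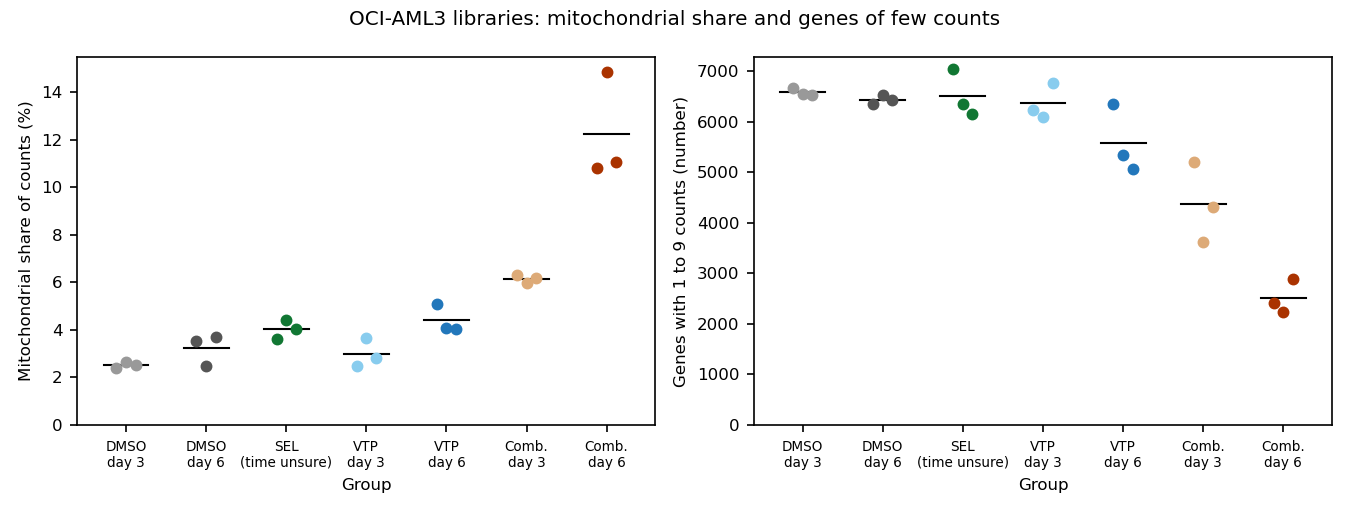
Mitochondrial share of counts (left, percent) and number of genes with 1 to 9 counts (right) in each of the 21 OCI-AML3 libraries, by group; each point is 1 library and the bar is the group mean. The 3 combination libraries at day 6 hold 10.8 to 14.9% mitochondrial counts, above all other libraries of the line, and 2242 to 2885 genes with 1 to 9 counts, below all others.

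How far the combination had changed OCI-AML3 by day 6 was asked first. Of 16384 genes tested, edgeR called 3780 higher than DMSO (23.1%) and 4343 lower (26.5%) at an adjusted p under 0.05, 49.6% in all, and these shares are the background against which each gene group below is read. A log2 fold change of 1 is a doubling, values are given ± SE with 3 libraries per group, and the median over all genes was 0.00. The largest rise by fitted fold was CNR2, the cannabinoid receptor of immune cells (ENSG00000188822.8, chromosome 1, 23870526 to 23913362 in GRCh38). It was at 0 in every DMSO library and at 9.95, 9.90 and 16.6 CPM with the combination, at least 214-fold higher against a floor of 3 counts over the group. GPA33, a cell surface antigen, was likewise at 0 in DMSO and at 3.34, 5.98 and 6.89 CPM (at least 94.97-fold). SIGLEC1, the sialic acid receptor of macrophages, stood at 0.295, 0.115 and 0 CPM in DMSO and 45.8, 76.6 and 55.9 with the combination (8.73 ± 0.64, adjusted p = 6.76e-09, edgeR). Among the same rises were the gap junction gene GJA1 (7.38 ± 0.95) and the interferon-stimulated genes IFI44L (7.37 ± 1.09) and IFIT2 (7.21 ± 1.01). The largest fall was that of SPTB, erythrocytic beta-spectrin, from 6.20, 9.56 and 6.80 CPM to 0 in every combination library, at least 117-fold lower. PTGIS, prostacyclin synthase, fell from 13.1, 13.4 and 11.3 CPM to 1 count in all, a count ratio of 587 (95% interval 105 to 23219, counting error only). The secreted hormone STC2, a target of the amino acid response, fell from 174, 169 and 158 to 1.4, 0.514 and 0.758 CPM (-7.53 ± 0.62, adjusted p = 6.95e-08, edgeR). The early growth response factor EGR1 fell from 158, 159.5 and 140.4 to 0, 2.44 and 2.59 (-6.49 ± 0.56, adjusted p = 1.31e-07, edgeR). Groups that do not overlap were a condition for naming these genes. Bounds against the floor, here and below, cover counting error only, and replicates scattered by more than that. Between pairs of replicates the mean chi-square per gene against counting error was 13.31 to 21.43 with the combination. It was 6.057 to 7.535 with DMSO, where counting error alone would give about 1. Genes of few counts were also scarcer with the combination, and the part of this in the zeros was not tested.

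**Figure D2:**
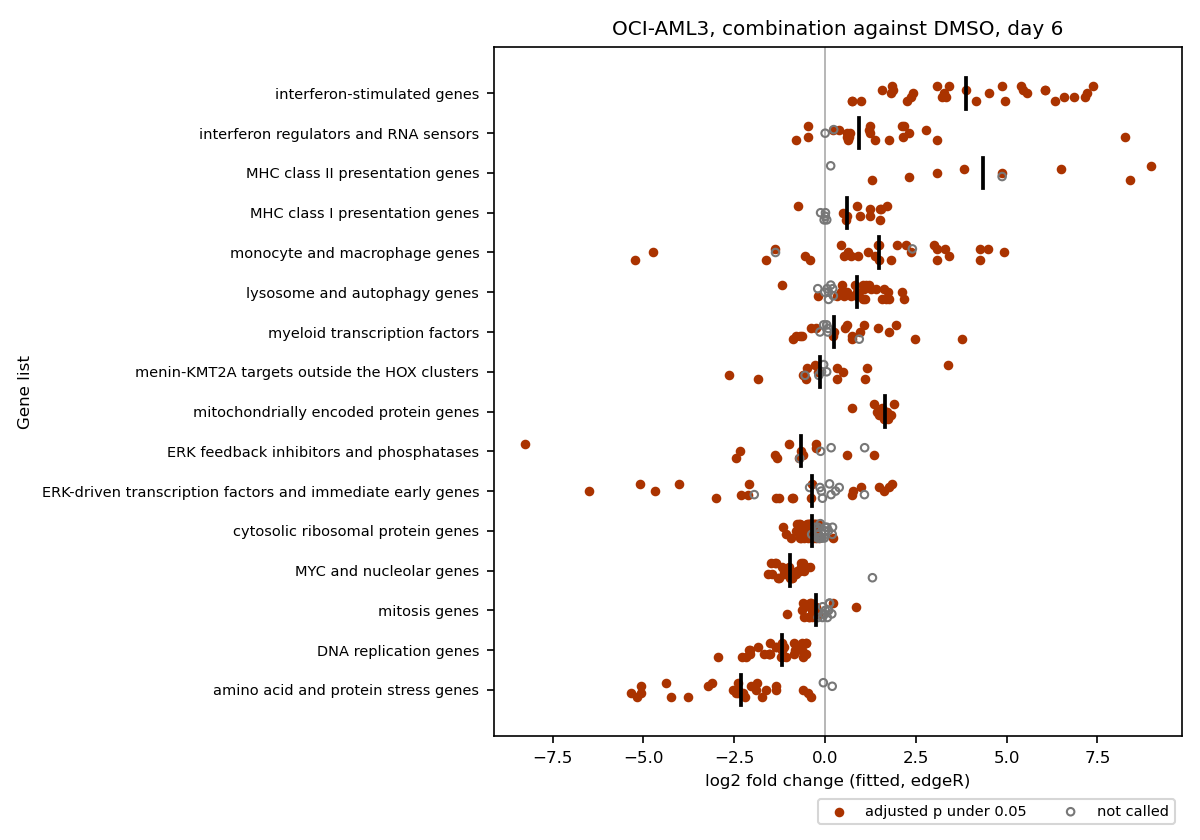
Log2 fold change of every tested member of 16 gene lists in OCI-AML3, combination against DMSO at day 6; each point is a gene, filled where its adjusted p is under 0.05 (edgeR), and the bar is the list's median. Interferon-stimulated genes lie to the right, with all 31 called higher, and amino acid stress and DNA replication genes to the left, with 26 of 28 and 33 of 33 called lower.

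Genes of the amino acid response fell. ATF4 is the transcription factor that cells make when amino acids run short or proteins misfold, and its targets take up amino acids and build serine, glycine and asparagine. Of 28 amino acid and protein stress genes tested, 26 were called lower and 0 higher with the combination (median log2 fold change -2.32), where 26.5% of all genes were lower. ATF4 itself (ENSG00000128272.14, chromosome 22, 39519695 to 39522685) went from 1259, 1226 and 1185 CPM in DMSO to 309, 293 and 285, a change of -2.05 ± 0.11 (adjusted p = 1.19e-13, edgeR). PSAT1, which makes phosphoserine, stood at 738, 749.7 and 729 CPM in DMSO and 21.8, 22.1 and 22.6 with the combination (-5.06 ± 0.24, adjusted p = 8.52e-11, edgeR). In both genes the 3 libraries of a group lay close together and the groups did not overlap. SHMT2, the mitochondrial enzyme that turns serine into glycine, fell from 736, 759 and 759 to 169.7, 149.6 and 169 CPM (-2.21 ± 0.09, adjusted p = 8.52e-17, edgeR). SLC7A11, the cystine importer, fell from 97.8, 98.7 and 87.97 to 12.1, 10.4 and 7.77 (-3.23 ± 0.15, adjusted p = 3.40e-15, edgeR). Its partner chain SLC3A2 fell from 436, 437 and 471 to 95.2, 77.3 and 83.9 (-2.39 ± 0.13, adjusted p = 1.20e-12, edgeR). XBP1, a factor of the unfolded protein response, changed by -1.91 ± 0.11, the one-carbon enzyme MTHFD2 by -1.36 ± 0.08 and phosphoserine phosphatase PSPH by -2.40 ± 0.14. ALDH1L2, a mitochondrial folate enzyme of the same list, fell from 321, 325 and 300.1 to 8.51, 7.33 and 10.3 CPM (-5.18 ± 0.22, adjusted p = 7.79e-12, edgeR).

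Levels in the other treated OCI-AML3 groups lay between these ends. ATF4 stood at 819, 603 and 585 CPM with selumetinib alone, 667, 842 and 701 with VTP-50469 alone at day 6 and 388, 409 and 431 with the combination at day 3. PSAT1 stood at 344, 187 and 175 CPM with selumetinib alone, 288, 422 and 319.9 with VTP-50469 alone and 56.2, 58.2 and 66.2 with the combination at day 3. In both genes every one of these libraries lay above the combination libraries at day 6. Tested directly against VTP-50469 alone at day 6, where edgeR called 16.7% of genes higher and 24.6% lower with the combination (41.3% in all), 23 of the 28 genes were lower and 1 higher (median -1.27). ATF4 was lower with a log2 difference of -1.32 ± 0.11 (adjusted p = 4.79e-10, edgeR) and PSAT1 with a log2 difference of -3.95 ± 0.24 (adjusted p = 2.24e-09, edgeR).

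The change from day 3 to day 6 was tested as the difference between the 2 combination effects, each against DMSO of its own day. edgeR called 335 genes with a higher effect at day 6 (2.04%) and 188 with a lower one (1.15%), 3.19% in all, and 5 of the 28 stress genes were lower and 0 higher. The lower calls in that list numbered 8 with library totals as scaling or without a filter and 9 with only the compared groups in the fit, and the higher ones 2 with DESeq2. With library totals in place of TMM scaling the median of all genes moved from 0.014 to -0.118 and the calls to 162 higher and 584 lower, so a day difference is read against that shift. Leaving out any one of the 6 DMSO libraries gave 163 to 219 higher and 76 to 116 lower calls. The lower calls numbered 118 without combination day 3 replicate 2, 292 without combination day 6 replicate 2 and 306 without its replicate 3. The SLC7A11 effect was lower at day 6, with a log2 difference of -0.91 ± 0.20 (adjusted p = 0.0128, edgeR), and so was that of PSAT1, with a log2 difference of -1.51 ± 0.30 (adjusted p = 0.0137, edgeR).

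In the difference between lines, NOMO1 effect minus OCI-AML3 effect at day 6, edgeR called 18.6% of 18707 genes higher and 16.3% lower (34.9% in all). With library totals these were 2652 higher and 3978 lower, with the median of all genes at -0.143 in place of 0.012. In this comparison 27 of 28 stress genes were higher and 0 lower (median 2.59), which means a less negative or a positive effect in NOMO1. ATF4 in NOMO1 stood at 267, 324 and 304 CPM in DMSO and 372, 378 and 394 with the combination, and its difference was 2.42 ± 0.26 (adjusted p = 6.47e-09, edgeR).

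The stretch of promoter before a stress gene is shown because members of the list moved together. ASNS makes asparagine and is the textbook target of ATF4, which binds with C/EBP proteins at a composite element. The letters TGATGNAA stand in the 160 bases before the ASNS start that holds them (GRCh38.p14, RefSeq, chr7:97872409-97872568, reverse strand), given 5′ to 3′ along the gene with that match in capitals.
ASNS promoter: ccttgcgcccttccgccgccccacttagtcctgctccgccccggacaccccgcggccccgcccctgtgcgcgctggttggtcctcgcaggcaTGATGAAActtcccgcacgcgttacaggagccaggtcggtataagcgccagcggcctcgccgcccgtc
On either strand these letters occurred in the 250 bases before 4 of the 24 stress genes found in RefSeq's table (ASNS, ATF3, CHAC1 and HERPUD1). Counted by start site, that is 11.1% of the 36 of the list, 3.14% of all 35116 and 1.8% of those of genes tested. ASNS stood at 16.2, 8.76 and 13.9 CPM in DMSO and 2.29, 3.66 and 1.138 with the combination, a change of -2.45 ± 0.34 (adjusted p = 1.23e-06, edgeR). CHAC1, which degrades glutathione, fell from 115, 112 and 114 to 4.12, 2.38 and 1.90 (-5.34 ± 0.34, adjusted p = 2.22e-09, edgeR). ASNS and CHAC1 were chosen after their values were seen, for the letters their promoters hold. A match of letters is a description of the sequence and shows no binding.

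Genes of DNA replication fell. These genes license origins, unwind DNA and supply nucleotides, and E2F factors switch them on once cyclin D and CDK4 have released them from the RB proteins. Of 33 tested, 33 were called lower (median -1.19). MCM6, a subunit of the replicative helicase (ENSG00000076003.5, chromosome 2, 135839626 to 135876426), went from 391, 405 and 405 CPM in DMSO to 96.5, 80.0 and 71.6 (-2.28 ± 0.10, adjusted p = 6.63e-16, edgeR). CDC45, which activates that helicase, went from 71.3, 65.2 and 81.3 to 7.39, 10.3 and 10.4 (-2.95 ± 0.18, adjusted p = 1.66e-12, edgeR). The licensing factor CDT1 fell from 405, 386 and 431 to 97.0, 92.1 and 95.6 (-2.10 ± 0.12, adjusted p = 5.65e-12, edgeR). None of these 3 genes had overlapping groups. Upstream of them, cyclin D1 (CCND1) fell from 98.5, 101 and 83.6 to 20.4, 18.2 and 18.2 CPM (-2.32 ± 0.22, adjusted p = 8.80e-08, edgeR). CDK4 fell from 139.5, 149.9 and 155 to 69.6, 73.0 and 76.2 (-1.02 ± 0.08, adjusted p = 2.90e-11, edgeR). E2F1 fell from 46.0, 42.8 and 53.4 to 12.3, 14.9 and 13.9 (-1.79 ± 0.15, adjusted p = 2.93e-11, edgeR). Groups did not overlap in these 3 either, and several inhibitors of cyclin-dependent kinases went the other way. CDKN1A (p21) rose from 49.1, 49.1 and 51.8 to 125, 134 and 144 CPM (1.43 ± 0.14, adjusted p = 1.78e-08, edgeR), and CDKN1B (p27) changed by 0.58 ± 0.08, CDKN2D (p19) by 1.42 ± 0.18 and the antiproliferative gene BTG2 by 1.15 ± 0.12, with CDKN1B and CDKN2D chosen after their values were seen. Of the 22 brakes and D-type cyclins tested, 10 were higher and 10 lower, a list that holds opposed functions.

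Mitosis genes were lower in part. Of 31 tested, 17 were lower and 2 higher (median -0.25), and against DMSO of day 3 the counts were 9 and 7. The spindle checkpoint gene MAD2L1 went from 139, 135 and 133 to 73.5, 60.1 and 65.4 CPM (-1.03 ± 0.08, adjusted p = 1.21e-11, edgeR). Cyclin A2 (CCNA2) fell from 139, 129 and 131 to 81.9, 89.6 and 83.6 (-0.65 ± 0.08, adjusted p = 8.15e-08, edgeR). KIF20A, a motor of the late spindle, rose from 50.0, 52.1 and 50.0 to 98.8, 87.1 and 89.8 (0.86 ± 0.09, adjusted p = 4.54e-09, edgeR). Against VTP-50469 alone at day 6, 33 of 33 replication genes were lower (median -1.24), as were 25 of 31 mitosis genes, with none higher in either list. PCNA, the sliding clamp of the polymerase, stood at 257, 266 and 245 CPM with VTP-50469 alone and 149, 129 and 142 with the combination, a difference of -0.87 ± 0.07 (adjusted p = 3.61e-11, edgeR). Levels of MCM6 were 224, 161 and 171 CPM with selumetinib alone, 265, 265 and 249 with VTP-50469 alone and 65.5, 76.8 and 79.9 with the combination at day 3. Between the 2 days 4 replication genes had a higher effect at day 6 and 0 a lower one, and the counts moved with the alternatives to 1 without DMSO day 6 replicate 2 and 2 with library totals as scaling or without any one of DMSO day 6 replicate 1, combination day 3 replicate 1 or DMSO day 3 replicate 1. E2F1 lay nearer its control at day 6, with a difference of 0.98 ± 0.21 (adjusted p = 0.00949, edgeR) from 6.41, 5.28 and 7.60 CPM at day 3. CCND1 did so too, from 7.24, 7.61 and 5.61 CPM at day 3, with a difference of 1.65 ± 0.31 (adjusted p = 0.00949, edgeR). Between lines 13 of 33 replication genes had a higher effect in NOMO1 and 1 a lower one, or 9 and 5 with library totals.

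2 promoter stretches of this group are shown for the E2F letters they hold, TTTCCCGC or TTTGGCGC on either strand, in capitals within the 160 bases before the start (GRCh38.p14, RefSeq). They are MCM6 at chr2:135876444-135876603, reverse strand and PCNA at chr20:5126623-5126782, reverse strand, each given 5′ to 3′ along the gene.
MCM6 promoter: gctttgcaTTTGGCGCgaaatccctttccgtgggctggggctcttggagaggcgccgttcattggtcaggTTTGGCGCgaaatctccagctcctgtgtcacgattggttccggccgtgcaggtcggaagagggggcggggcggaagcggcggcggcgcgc
PCNA promoter: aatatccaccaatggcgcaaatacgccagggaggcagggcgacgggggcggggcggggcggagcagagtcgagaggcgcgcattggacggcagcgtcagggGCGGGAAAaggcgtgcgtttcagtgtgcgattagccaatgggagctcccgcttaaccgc
Such letters occurred in the 250 bases before 11 of 29 replication genes matched. By start site they occurred before 28.9% of the 38 of the list, 1.93% of all and 2.81% of those of genes tested. Those of MCM6 occur at 2 places in the printed stretch and those of PCNA at 1.

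MYC and genes of ribosome building fell. MYC drives growth by raising rRNA synthesis and processing, and ERK stabilises it. MYC stood at 641, 644 and 623 CPM in DMSO and 266, 263 and 265 with the combination (-1.26 ± 0.11, adjusted p = 2.93e-10, edgeR), and 26 of 27 MYC and nucleolar genes tested were lower and 0 higher (median -0.96). RRP12, which exports ribosomal subunits, fell from 138, 144 and 138 to 52.0, 48.9 and 51.6 CPM (-1.46 ± 0.10, adjusted p = 3.99e-13, edgeR). NOP56 of the rRNA-methylating particle fell from 339.9, 335 and 340.2 to 156, 157 and 148 (-1.138 ± 0.08, adjusted p = 5.56e-13, edgeR). Nucleolin (NCL), among the most abundant nucleolar proteins, fell from 1592, 1599 and 1533 to 873, 854 and 793 (-0.91 ± 0.07, adjusted p = 8.83e-12, edgeR). NPM1, whose mutation labels the line, fell from 2159, 2204 and 2108 to 1059.7, 1165 and 1005 (-1.002 ± 0.09, adjusted p = 4.24e-10, edgeR); counts per gene do not separate its mutant from its normal transcript. Ribosomal protein genes moved by less, with 56 of 77 lower, 1 higher and a median of -0.36. RPL5, for example, went from 2159, 2262 and 2172 to 1282, 1276 and 1249.8 CPM (-0.79 ± 0.09, adjusted p = 1.33e-08, edgeR). Proteasome subunit genes had 24 of 31 lower and 0 higher (median -0.37), led by PSMD14, a deubiquitinase of the lid (-1.10 ± 0.08).

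Beside VTP-50469 alone, 22 of 27 MYC and nucleolar genes were lower with the combination and 0 higher (median -0.60), and 25 of 31 proteasome genes were lower (median -0.48). Of 77 ribosomal protein genes 6 were lower and 5 higher, and the median of -0.01 changed sign between alternatives. The higher calls numbered 2 without VTP-50469 day 6 replicate 3, 3 without either combination day 6 replicate 1 or VTP-50469 day 6 replicate 1, 8 with a filter of 1 CPM in 3 libraries, 9 without combination day 6 replicate 3, 12 without a filter, 14 with relative log expression scaling, 15 with DESeq2 and 22 with only the compared groups in the fit. The lower calls numbered 12 with library totals as scaling or without combination day 6 replicate 1. MYC was at 349.8, 395 and 358 CPM with VTP-50469 alone (-0.47 ± 0.10, adjusted p = 0.000703, edgeR) and at 479.8, 383 and 392 with selumetinib alone. From day 3 to day 6 MYC moved back towards its control, from 136, 160.2 and 175 CPM at day 3 to the 266, 263 and 265 of day 6, with a difference of 0.84 ± 0.15 (adjusted p = 0.00219, edgeR) between the effects. 10 of the 27 listed genes had a higher effect at day 6 and 0 a lower one, and the first count was 5 without DMSO day 6 replicate 1 and 6 with library totals as scaling or without DMSO day 3 replicate 2. The fall was steeper in NOMO1. There MYC was at 413, 410.2 and 428 CPM in DMSO and 69.6, 69.9 and 63.0 with the combination, and 22 of 27 listed genes had a lower effect there and 1 a higher one (median -1.08). The MYC difference between lines was -1.35 ± 0.13 (adjusted p = 1.01e-11, edgeR).

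Transcripts of the mitochondrial genome rose, and nuclear factors that express that genome fell. The mitochondrial genome encodes 13 proteins of the respiratory chain, and the other subunits and the whole expression machinery are nuclear. All 13 of 13 mitochondrially encoded protein genes were higher with the combination (median 1.65). MT-CO1, a subunit of cytochrome oxidase, stood at 7860.3, 5518 and 8246 CPM in DMSO and 20187, 28238 and 20802 with the combination (1.68 ± 0.17, adjusted p = 4.12e-07, edgeR), with replicate 2 the highest. Reads of mitochondrial genes can also match their nuclear copies. NOMO1 libraries with DMSO at day 3 had a high mitochondrial share too, as given above. Whether the rise here comes from the drugs or from the libraries was not tested. MT-ND5 of complex I changed by 1.82 ± 0.17 and MT-CO3 by 1.36 ± 0.14. Of 36 nuclear oxidative phosphorylation genes, 13 were lower and 7 higher (median -0.06), with 4 without DMSO day 6 replicate 1 for the higher calls; cytochrome c (CYCS) fell from 201, 209.7 and 199.7 to 125, 111 and 120.2 CPM (-0.78 ± 0.09, adjusted p = 2.84e-08, edgeR). Of 24 mitochondrial expression and replication factors, 18 were lower and 1 higher (median -0.48). LRPPRC, which stabilises mitochondrial mRNAs, fell from 591, 598 and 581 to 182, 205 and 201 CPM (-1.59 ± 0.08, adjusted p = 3.45e-16, edgeR), the polymerase POLRMT changed by -0.77 ± 0.08 and the packaging factor TFAM by -0.77 ± 0.08. Against VTP-50469 alone 13 of the 13 encoded genes were higher (median 1.31), and in NOMO1 the effect was lower in 13 of 13 (median -1.60). Their day 6 and day 3 effects were not separated by the test, with 0 called (2 with DESeq2) and a median difference of 0.65. The nuclear RNAs MALAT1 (1.88 ± 0.27) and NEAT1 (1.08 ± 0.22) also rose, from 48.3, 40.9 and 48.3 to 127, 155 and 225 CPM in the case of MALAT1. Leaving mitochondrial genes out of the table before scaling moved the 2 counts of called genes to 3745 and 4362.

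Feedback genes of ERK, which selumetinib is designed to lower, mostly fell, and its transcription factors moved both ways. Cells use Sprouty proteins and dual-specificity phosphatases, themselves induced by ERK, to restrain the pathway. Of 17 such feedback genes, 11 were lower and 2 higher (median -0.67). SPRY4 stood at 60.8, 63.5 and 56.3 CPM in DMSO and 20.9, 21.5 and 27.2 with the combination (-1.37 ± 0.17, adjusted p = 4.52e-07, edgeR). Its relative SPRY2 fell from 79.9, 79.1 and 77.8 to 37.8, 25.6 and 32.2 (-1.31 ± 0.12, adjusted p = 2.03e-10, edgeR). The ERK phosphatase DUSP6 fell from 11.7, 6.86 and 10.4 to 0.851, 2.51 and 1.96 (-2.44 ± 0.37, adjusted p = 5.58e-06, edgeR). SPRY1 was at 2.18, 1.4 and 2.52 CPM in DMSO and 0 in every combination library, at least 32.0-fold lower. DUSP10, a phosphatase of the stress kinases JNK and p38, rose from 11.2, 11.8 and 9.27 to 22.6, 32.5 and 26.9 (1.35 ± 0.16, adjusted p = 4.99e-08, edgeR). Among 31 ERK-driven factors and immediate early genes, 14 were lower and 7 higher (median -0.35). EGR3 fell from 13.98, 15.2 and 8.77 to 0, 0.193 and 0.885 CPM (-5.10 ± 0.50, adjusted p = 1.77e-09, edgeR). The urokinase receptor PLAUR fell from 78.1, 75.2 and 72.9 to 22.5, 12.9 and 17.4 (-2.10 ± 0.18, adjusted p = 9.66e-10, edgeR). The members that rose included FOSL2, an AP-1 subunit, from 216, 215 and 208 to 760.4, 743 and 771 (1.83 ± 0.07, adjusted p = 5.03e-18, edgeR). JUN, its partner, rose from 10.1, 10.4 and 9.71 to 26.2, 25.5 and 33.8 (1.498 ± 0.18, adjusted p = 2.97e-08, edgeR). KLF4, a zinc finger factor of monocytes, rose from 20.5, 21.6 and 22.1 to 77.1, 70.8 and 68.2 (1.75 ± 0.14, adjusted p = 3.30e-11, edgeR). Of the pathway's own 17 RAS, RAF, MEK and ERK genes 4 were lower and 3 higher, under the share of all genes in each direction. The higher calls numbered 1 without either combination day 6 replicate 2 or DMSO day 6 replicate 3. NRAS changed by 0.01 ± 0.08 (adjusted p = 0.912, edgeR).

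DUSP6 and SPRY4 stood above their DMSO levels with VTP-50469 alone and below them with the combination. DUSP6 stood at 24.5, 22.3 and 21.9 CPM with VTP-50469 alone, 6.86, 3.41 and 2.71 with selumetinib alone and 0.851, 2.51 and 1.96 with the combination, whose difference from VTP-50469 was -3.68 ± 0.37 (adjusted p = 1.97e-08, edgeR). SPRY4 was at 103, 83.6 and 102 CPM with VTP-50469 alone and was lower with the combination with a log2 difference of -2.05 ± 0.17 (adjusted p = 1.91e-09, edgeR). In all, 13 of 17 feedback genes were lower than with VTP-50469 alone and 1 higher (median -0.56), and 14 of 31 factors were lower and 6 higher. EGR1 was low in every treated group, at 5.597, 3.64 and 2.54 CPM with selumetinib and 6.22, 6.86 and 7.94 with VTP-50469 alone. From day 3 to day 6, 8 of 31 factors and 2 of 17 feedback genes had a higher effect and none a lower one. SPRY4 was at 8.12, 7.08 and 11.3 CPM with the combination at day 3 (1.55 ± 0.25, adjusted p = 0.00119, edgeR for the difference between days). The plot of levels by group shows DUSP6 and SPRY4 in every library of the groups drawn there.

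**Figure D3:**
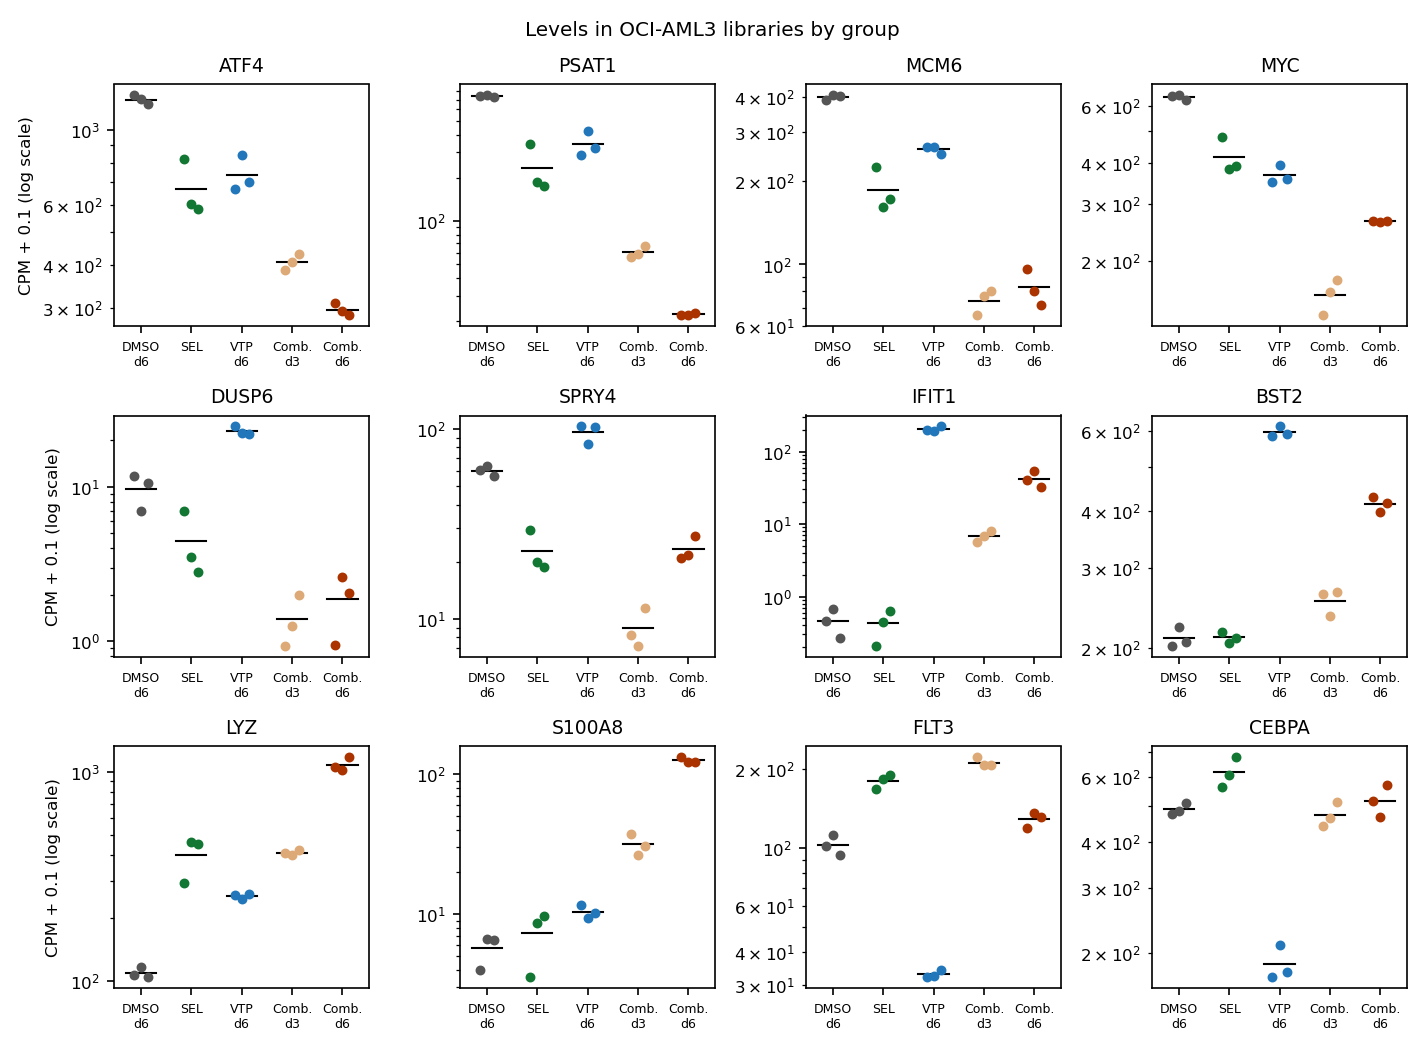
CPM of 12 genes in each OCI-AML3 library (vertical axis, CPM + 0.1, log scale) for DMSO at day 6, selumetinib alone (SEL), VTP-50469 alone at day 6, and the combination at day 3 and day 6; each point is 1 library and the bar is the group mean. IFIT1 and BST2 are highest with VTP-50469 alone, LYZ and S100A8 with the combination at day 6, and ATF4, PSAT1 and MCM6 are highest in DMSO.

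Known targets of menin and KMT2A moved in both directions. HOXA9 and MEIS1 sustain self-renewal in these leukaemias and are the usual readout of menin inhibition. MEIS1 (ENSG00000143995.20, chromosome 2, 66433452 to 66573869) went from 52.9, 41.4 and 44.6 CPM in DMSO to 29.9, 29.4 and 32.6 with the combination (-0.60 ± 0.12, adjusted p = 0.000124, edgeR). HOXA9 lay at 100.1, 88.1 and 87.0 and 111, 87.5 and 84.2 CPM, with overlapping groups (0.04 ± 0.10, adjusted p = 0.772, edgeR). Of 9 HOXA genes 2 were higher and 1 lower (4 without combination day 6 replicate 2 for the first count), and of 9 HOXB genes 2 were higher and 2 lower, against backgrounds of 23.1% and 26.5%. HOXA13 changed by 0.57 ± 0.07 and HOXB9 with a log2 difference of -1.75 ± 0.25. Of 18 targets outside the HOX clusters, 6 were higher and 7 lower (median -0.13), and the first count was 3 without either combination day 6 replicate 3 or DMSO day 6 replicate 1. The RNA-binding protein gene IGF2BP2 fell from 234, 231 and 219 to 42.01, 29.8 and 37.9 CPM (-2.64 ± 0.12, adjusted p = 1.13e-15, edgeR). The survival gene BCL2 fell from 359, 371 and 360.5 to 117, 99.1 and 89.1 (-1.84 ± 0.14, adjusted p = 1.77e-09, edgeR). LMO2, a haematopoietic adaptor, rose from 227, 251 and 247 to 558, 508 and 536 (1.143 ± 0.07, adjusted p = 1.78e-13, edgeR). MEF2C, a myeloid transcription factor, rose from 76.7, 69.5 and 84.0 to 172, 162 and 162 (1.11 ± 0.13, adjusted p = 4.37e-07, edgeR). Of 16 members of the menin and KMT2A complexes 4 were higher and 5 lower, near the shares of all genes in each direction. MEN1, which encodes menin, lay at 84.4, 85.7 and 90.6 and 80.0, 79.3 and 76.1 CPM (-0.15 ± 0.07, adjusted p = 0.0893, edgeR), and KMT2A at 75.6, 94.7 and 91.8 and 97.8, 72.3 and 75.2 (-0.10 ± 0.14, adjusted p = 0.615, edgeR).

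Compared with VTP-50469 alone at day 6, 10 of the 18 targets were higher with the combination and 1 lower (median 0.37). FLT3, a growth factor receptor, stood at 102, 111 and 93.5 CPM in the DMSO libraries, 31.9, 32.2 and 34.1 with VTP-50469 alone, 168, 184 and 190.3 with selumetinib alone and 119, 136 and 131 with the combination. Its level exceeded that of VTP-50469 alone by 1.97 ± 0.12 (adjusted p = 2.36e-12, edgeR) in log2, and it was 222, 207 and 207 CPM with the combination at day 3 (-0.73 ± 0.16, adjusted p = 0.0118, edgeR between the days). The RNA-destabilising protein gene ZFP36L2 was likewise above VTP-50469 alone, at 1172, 1206 and 1296 against 402, 416 and 414 CPM (1.58 ± 0.08, adjusted p = 4.55e-14, edgeR). In NOMO1 the MEIS1 and HOXA9 levels with the combination lay under those with DMSO, without overlap. MEIS1 was at 30.5, 28.3 and 25.1 CPM in NOMO1 DMSO and at 0 in every NOMO1 combination library, HOXA9 went from 60.4, 59.9 and 61.6 to 11.2, 15.2 and 9.44, and 5 of 11 HOXA genes had a lower effect there than in OCI-AML3 and 0 a higher one. The HOXA9 difference was -2.36 ± 0.17 (adjusted p = 5.75e-15, edgeR) and that of MEF2C -4.35 ± 0.27 (adjusted p = 4.08e-14, edgeR). The plot of effects in both lines sets these genes side by side.

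**Figure D4:**
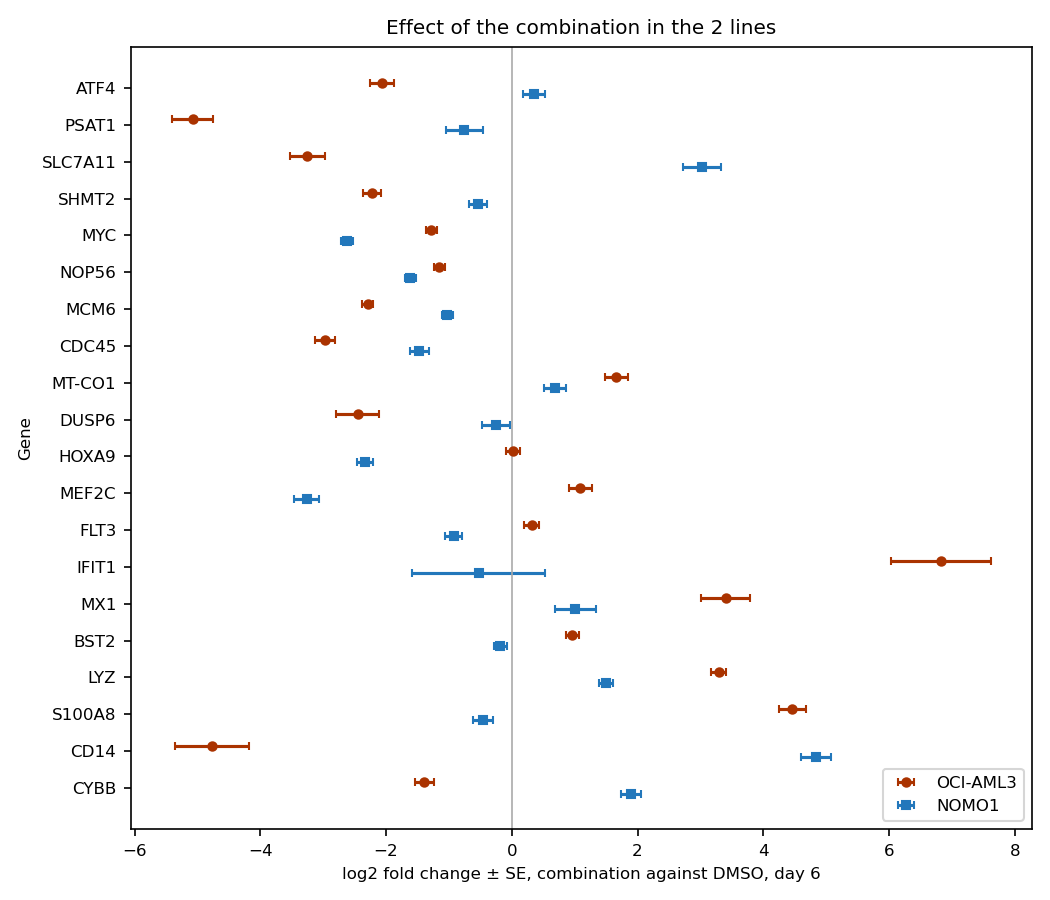
Log2 fold change (combination against DMSO at day 6, ± SE, fit of all 42 libraries) in OCI-AML3 and in NOMO1 for 20 genes named in the text; the horizontal axis is the effect and each gene has 1 point per line. Stress genes lie below 0 in OCI-AML3 and nearer 0 or above in NOMO1, interferon genes lie above 0 in OCI-AML3, and HOXA9 and MEF2C lie below 0 in NOMO1.

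Interferon-stimulated genes were raised over DMSO and below VTP-50469 alone. Cells switch these antiviral genes on through a complex that holds STAT2 and IRF9 and binds the interferon-stimulated response element. All 31 of 31 tested were higher with the combination than with DMSO (median 3.89), where 23.1% of all genes were higher. BST2, a membrane protein that tethers budding viruses (ENSG00000130303.13, chromosome 19, 17402939 to 17405648), went from 202, 222 and 207 CPM to 429, 398 and 417 (0.98 ± 0.07, adjusted p = 1.75e-12, edgeR). IFIT1, which binds foreign RNA caps (ENSG00000185745.10, chromosome 10, 89392546 to 89406486), went from 0.354, 0.576 and 0.165 to 41.0, 53.6 and 32.5 (6.84 ± 1.06, adjusted p = 6.67e-05, edgeR). MX1, an antiviral GTPase, rose from 0.944, 0.576 and 0.658 to 5.76, 10.7 and 6.95 (3.42 ± 0.50, adjusted p = 1.36e-05, edgeR). IFI6 of the endoplasmic reticulum rose from 2.66, 6.28 and 5.59 to 345, 433 and 395 (6.33 ± 0.71, adjusted p = 2.48e-06, edgeR). Of 24 interferon regulators and RNA sensors 19 were higher and 3 lower (median 0.94). STAT2 changed by 1.76 ± 0.16, IRF1 by 1.37 ± 0.09, the sensor kinase EIF2AK2 by 2.10 ± 0.23 and TMEM173, which encodes the DNA-sensing adaptor STING, by 1.25 ± 0.06.

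With VTP-50469 alone at day 6 the same genes stood higher still. IFIT1 was at 198, 190.2 and 222 CPM and MX1 at 60.0, 57.3 and 65.1, and no combination library reached those levels. 29 of 31 were lower with the combination than with VTP-50469 alone and 0 higher (median -1.62). IFIT1 was lower with a log2 difference of -2.26 ± 0.61 (adjusted p = 0.00796, edgeR), MX1 with a log2 difference of -2.96 ± 0.38 (adjusted p = 4.71e-06, edgeR), BST2 with a log2 difference of -0.52 ± 0.07 (adjusted p = 5.24e-07, edgeR) and MX2 with a log2 difference of -1.04 ± 0.10 (adjusted p = 7.98e-10, edgeR). With selumetinib alone IFIT1 lay at 0.106, 0.347 and 0.533 and MX1 at 0.792, 0.924 and 1.31 CPM, within or near the range of DMSO. At day 3 of the combination IFIT1 was at 5.48, 6.76 and 7.85 and BST2 at 263, 235 and 265 CPM. Of the 31 genes 3 had a higher effect at day 6 than at day 3 by the test and 0 a lower one, although the median difference was 1.89. The first count was 9 with DESeq2 and 21 with only the 4 compared groups in the fit. The fit of all 21 libraries also draws its spread from VTP-50469 alone at day 3, where replicate 2 stood apart. IFIT1 was at 4.07, 36.6 and 1.89 CPM there and IFI6 at 27.7, 166 and 20.1. The part of that library in the count was not tested. BST2 differed by 0.85 ± 0.10 (adjusted p = 5.89e-06, edgeR). NOMO1 had a lower effect in 24 of 31 genes and a higher one in 0 (median -2.83), with IFIT1 at 0.490, 0.979 and 0.828 CPM in its DMSO and 0.913, 0.333 and 0.350 in its combination libraries (-7.35 ± 1.42, adjusted p = 0.00012, edgeR for the difference).

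2 promoter stretches are printed for the response element that the list is known for, GAAANNGAAA on either strand, in capitals within the 160 bases before the start (GRCh38.p14, RefSeq). IFIT1 lies at chr10:89392463-89392622, forward strand and BST2 at chr19:17405631-17405790, reverse strand, each given 5′ to 3′ along the gene.
IFIT1 promoter: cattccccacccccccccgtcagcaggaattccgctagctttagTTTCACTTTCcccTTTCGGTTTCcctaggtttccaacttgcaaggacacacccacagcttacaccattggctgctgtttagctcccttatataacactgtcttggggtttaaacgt
BST2 promoter: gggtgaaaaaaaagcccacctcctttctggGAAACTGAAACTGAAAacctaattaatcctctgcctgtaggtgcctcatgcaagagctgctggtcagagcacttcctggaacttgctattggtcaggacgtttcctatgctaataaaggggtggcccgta
These letters stood in the 250 bases before 20 of 26 interferon-stimulated genes matched. By start site the share was 63.9% of the 36 of the list, 3.02% of all 35116 and 2.59% of those of genes tested. IFIT1 holds 2 separate copies in the printed stretch, and BST2 holds 2 that overlap.

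Most antigen presentation genes rose. MHC class II molecules show peptides to CD4 T cells, are switched on by CIITA, and are often low in acute myeloid leukaemia. Of 10 class II genes tested 8 were higher and 0 lower (median 4.35, or 3.46 with genes at 0 in DMSO set to their bound). HLA-DRA (ENSG00000204287.14, chromosome 6, 32439842 to 32445046) went from 0, 0.173 and 0.274 CPM in DMSO to 12.2, 17.1 and 13.9 (6.51 ± 0.54, adjusted p = 3.20e-11, edgeR), a low level beside NOMO1, where DMSO libraries had 350.0, 459 and 444. HLA-DRB1 was at 0 in DMSO and at 2.94, 3.34 and 3.79 CPM, at least 58.9-fold higher, though reads of its near-identical copies may be split. CIITA went from 1.003, 0.864 and 0.658 to 4.45, 4.31 and 3.79 (2.31 ± 0.41, adjusted p = 2.70e-05, edgeR). The invariant chain CD74, the most abundant member, rose from 155, 155 and 165 to 363, 439.5 and 367 (1.30 ± 0.09, adjusted p = 9.22e-13, edgeR). Class I genes, which serve every nucleated cell, were higher in 11 of 17 and lower in 1 (median 0.62). The light chain B2M rose from 566, 558 and 522 to 1466, 1664 and 1529 (1.502 ± 0.08, adjusted p = 2.01e-15, edgeR). The peptide pump TAP1 rose from 27.7, 26.7 and 30.3 to 98.5, 74.9 and 101 (1.70 ± 0.14, adjusted p = 9.11e-11, edgeR). NLRC5, the class I transactivator, fell from 40.6, 46.4 and 40.4 to 21.3, 26.0 and 28.9 (-0.74 ± 0.12, adjusted p = 4.52e-06, edgeR), a gene chosen after its values were seen. Against VTP-50469 alone 2 class II genes were higher and 0 lower, and class I genes had 2 higher and 9 lower. B2M was 1546, 1504 and 1465 CPM with VTP-50469 alone, overlapping the combination (0.05 ± 0.08, adjusted p = 0.674, edgeR), whereas TAP1 was lower with the combination with a log2 difference of -0.77 ± 0.13 (adjusted p = 2.31e-05, edgeR). A higher effect at day 6 than at day 3 was called in 5 class I genes, or 2 with library totals as scaling or without any one of DMSO day 6 replicate 2, DMSO day 6 replicate 3, combination day 3 replicate 1, DMSO day 3 replicate 1 or DMSO day 3 replicate 2 and 3 with the replicate number as a block or without any one of combination day 6 replicate 3, DMSO day 6 replicate 1 or DMSO day 3 replicate 3. B2M differed by 0.60 ± 0.11 (adjusted p = 0.00185, edgeR) and CD74 of the class II list by 0.86 ± 0.13 (adjusted p = 0.000192, edgeR).

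Most genes of monocytes and of the lysosome rose. Differentiation of leukaemic blasts towards monocytes is a known effect of menin inhibition. Of 31 monocyte and macrophage genes 23 were higher and 6 lower (median 1.48). The 37 listed summed to 3158 to 3291 CPM with the combination against 1705 to 1818 with DMSO. A large part of that rise is LYZ. Without the highest member of each group, LYZ with the combination and CYBB with DMSO, the sums were 2140 to 2203 and 1209 to 1296. LYZ, lysozyme (ENSG00000090382.6, chromosome 12, 69348341 to 69354234), stood at 106, 117 and 104 CPM in DMSO and 1050.5, 1014 and 1167 with the combination (3.31 ± 0.12, adjusted p = 9.38e-17, edgeR). The calprotectin subunits S100A8 and S100A9 rose, from 3.89, 6.57 and 6.42 to 132, 123 and 123 CPM for the first (4.48 ± 0.26, adjusted p = 1.93e-11, edgeR) and from 11.4, 14.2 and 18.3 to 120.5, 114 and 116 for the second (3.00 ± 0.13, adjusted p = 1.04e-16, edgeR). TLR4, the endotoxin receptor, rose from 21.7, 22.01 and 19.6 to 118, 108 and 101 (2.37 ± 0.11, adjusted p = 3.28e-16, edgeR). The integrin chain ITGAM (CD11b) rose from 2.01, 1.33 and 1.81 to 28.5, 33.2 and 37.7 (4.27 ± 0.42, adjusted p = 6.86e-08, edgeR). The list was not uniform. CYBB, the catalytic subunit of the phagocyte oxidase, fell from 545, 538 and 513 to 210.0, 207 and 198 (-1.37 ± 0.13, adjusted p = 2.39e-08, edgeR), and CD14, the endotoxin co-receptor, was at 2.83, 2.77 and 3.56 CPM in DMSO and 0.327, 0 and 0 with the combination (-4.74 ± 0.74, adjusted p = 3.59e-06, edgeR). Replicates 2 and 3 are at 0, and the fit without replicate 1 of the combination gave -8.84 for CD14. Of 15 neutrophil and granule genes 5 were higher and 2 lower (median 0.15), with fitted changes down to -7.05. Of the 28 listed, 11 were at 0 in every DMSO library and 11 in every combination library. Cathepsin G (CTSG) rose from 1427, 1475 and 1554 to 3457, 3297 and 3270.0 CPM (1.17 ± 0.09, adjusted p = 2.16e-11, edgeR). Elastase (ELANE) rose from 572, 609.6 and 604 to 1292, 1306 and 1385 (1.16 ± 0.14, adjusted p = 2.42e-06, edgeR).

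Factors that set myeloid fate were split, with 13 of 25 higher and 6 lower. NFE2, an AP-1-like factor, rose from 7.97, 6.28 and 8.06 to 86.0, 115 and 103 CPM (3.77 ± 0.17, adjusted p = 9.55e-16, edgeR). ID2, an inhibitor of helix-loop-helix factors, rose from 16.8, 19.0 and 21.1 to 105, 98.8 and 115 (2.48 ± 0.14, adjusted p = 1.48e-14, edgeR). RUNX3 fell from 63.6, 66.4 and 65.4 to 44.4, 28.4 and 34.1 (-0.87 ± 0.13, adjusted p = 2.03e-06, edgeR). CEBPA, the granulocyte factor, was 477, 486 and 511 and 515, 466 and 570.0 CPM, overlapping (0.07 ± 0.13, adjusted p = 0.665, edgeR). Lysosome and autophagy genes were higher in 25 of 35 and lower in 2 (median 0.87). The protease CTSS went from 107, 117 and 102 to 351, 367 and 374 CPM (1.75 ± 0.08, adjusted p = 5.27e-16, edgeR). Progranulin (GRN) rose from 375, 396 and 353 to 1144, 1173 and 1159 (1.63 ± 0.10, adjusted p = 7.64e-13, edgeR). TFE3, a transcription factor that drives lysosome genes, rose from 45.7, 45.3 and 50.4 to 103, 102 and 100.4 (1.11 ± 0.08, adjusted p = 6.34e-13, edgeR). Of 14 stem and progenitor genes 2 were higher and 6 lower. TAL1, a factor of early blood cells, fell from 6.49, 5.01 and 6.09 to 0.916, 1.22 and 0.695 CPM (-2.63 ± 0.37, adjusted p = 8.70e-07, edgeR). SOX4 rose from 127, 131 and 134 to 247, 233 and 233 (0.86 ± 0.07, adjusted p = 1.07e-11, edgeR).

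Many myeloid genes stood higher with the combination than with VTP-50469 alone. At day 6, 18 of 31 monocyte genes, 18 of 25 myeloid factors and 21 of 35 lysosome genes were higher with the combination, and 2, 1 and 2 were lower, where 16.7% of all genes were higher and 24.6% lower. The monocyte genes called lower numbered 4 with only the compared groups in the fit, 5 without a filter and 6 without combination day 6 replicate 2. LYZ was 257, 247 and 259.6 CPM with VTP-50469 alone and 292, 459.9 and 449.9 with selumetinib alone, both under the combination, which differed from VTP-50469 by 2.08 ± 0.11 (adjusted p = 4.04e-13, edgeR). S100A8 lay at 11.5, 9.21 and 10.1 and 3.43, 8.55 and 9.68 CPM in those groups (3.61 ± 0.25, adjusted p = 4.49e-10, edgeR against VTP-50469). CEBPA was 172, 210.1 and 177 CPM with VTP-50469 alone, so that the combination was higher by 1.47 ± 0.13 (adjusted p = 2.08e-08, edgeR) while near DMSO. The growth factor receptor CSF1R, whose rise over VTP-50469 was the second largest of those named by the rule, was at 0.989, 0.421 and 0.631 CPM with VTP-50469 alone, 6.49, 5.13 and 4.28 in DMSO, 27.99, 63.0 and 62.9 with selumetinib alone and 11.3, 6.56 and 11.9 with the combination (3.85 ± 0.36, adjusted p = 4.62e-09, edgeR). From day 3 to day 6, 5 monocyte genes had a higher effect and 1 a lower one. LYZ was at 407, 400.4 and 422 CPM at day 3 of the combination (1.37 ± 0.15, adjusted p = 8.47e-06, edgeR) and S100A9 at 21.6, 25.9 and 23.1 (1.61 ± 0.18, adjusted p = 5.89e-06, edgeR).

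Monocyte genes responded differently in NOMO1. Of 37 monocyte genes 23 had a higher effect in NOMO1 and 7 a lower one (median 1.442). CD14 stood at 2.60, 3.13 and 2.74 CPM in NOMO1 DMSO and 63.6, 86.7 and 93.6 with the combination, a difference from OCI-AML3 of 9.60 ± 0.55 (adjusted p = 3.48e-16, edgeR). CD36, a scavenger receptor, differed by 4.61 ± 0.19 (adjusted p = 9.93e-22, edgeR) and CYBB by 3.28 ± 0.22 (adjusted p = 2.37e-13, edgeR). S100A8 went the other way, from 1584, 1384 and 1513 to 1169.9, 1131 and 961 CPM in NOMO1 (-4.92 ± 0.27, adjusted p = 1.82e-15, edgeR for the difference).

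**Figure D5:**
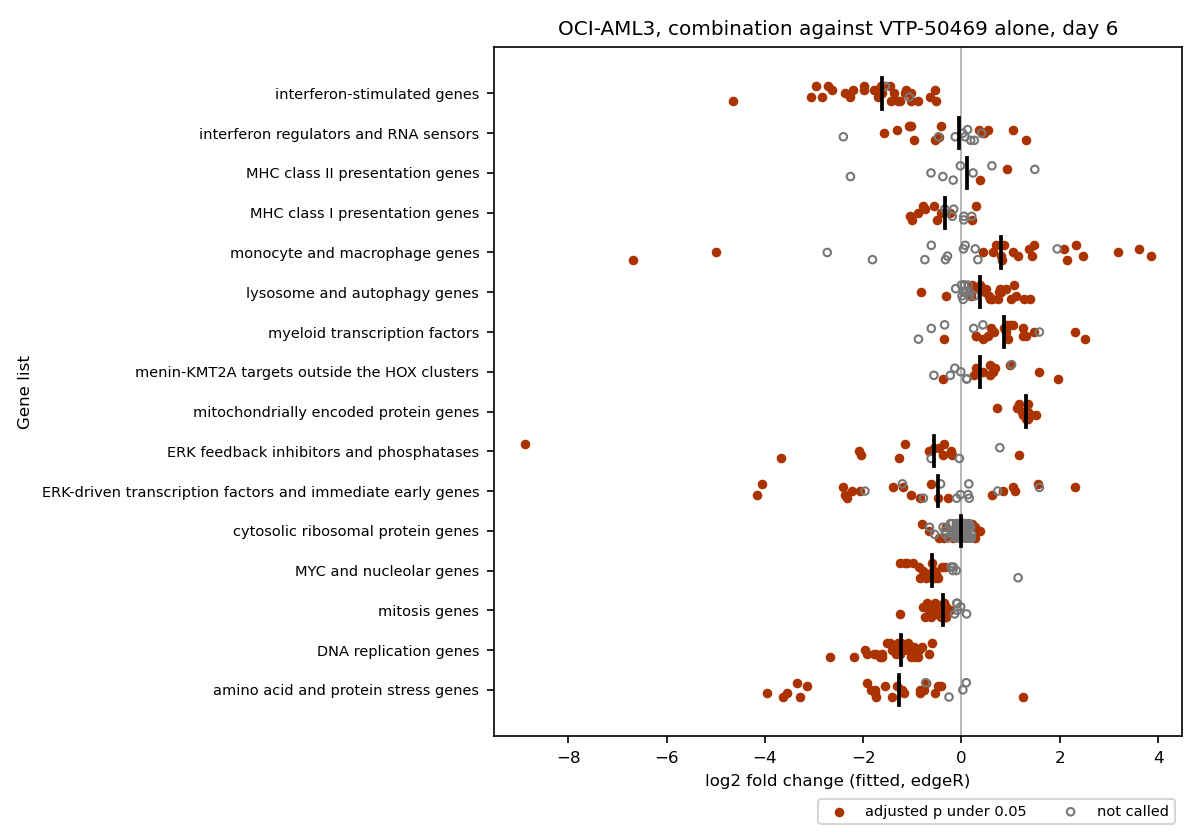
Log2 fold change of every tested member of the same 16 gene lists, combination against VTP-50469 alone, both at day 6 in OCI-AML3; filled points have an adjusted p under 0.05 (edgeR) and bars are medians. Interferon-stimulated genes lie to the left of 0, with 29 of 31 lower, and monocyte genes mostly to the right, with 18 of 31 higher.

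Several of the largest falls against VTP-50469 alone were genes low in DMSO and present with VTP-50469. edgeR called 2737 genes higher and 4030 lower with the combination than with VTP-50469 alone. NPPC, C-type natriuretic peptide, was at 0.236, 0 and 0.0548 CPM in the DMSO libraries, 23.5, 27.0 and 27.1 with VTP-50469 alone and 0 in every combination library, at least 403-fold lower. SPARC, a matrix protein, was at 0.236, 0.115 and 0.329 CPM in the DMSO libraries, 86.2, 73.3 and 76.8 with VTP-50469 alone and 0.393, 0 and 1.33 with the combination (-7.07 ± 1.200, adjusted p = 0.000228, edgeR). RGS4, which shortens G protein signals, was at 0, 0 and 0, 15.2, 11.4 and 14.9 and 0, 0.129 and 0 CPM in the same groups. Epithelial and stromal markers other than VIM summed to 53.3 to 124 CPM in the VTP-50469 libraries, above the range of the combination, and whether this has a part in such falls was not tested. Of 30 collagen and matrix genes 11 were lower than with VTP-50469 alone and 4 higher, the first count being 6 with only the compared groups in the fit and the second 2 without VTP-50469 day 6 replicate 1.

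Single genes of survival and cell death moved both ways. Of 6 anti-apoptotic BCL2 family genes 2 were higher and 2 lower, against backgrounds of 23.1% and 26.5%. The higher calls numbered 0 without any one of combination day 6 replicate 1, DMSO day 6 replicate 2 or DMSO day 6 replicate 3. BCL2 fell as given above, while MCL1 lay at 452, 459 and 440.3 and 451, 435 and 452 CPM with overlapping groups (-0.01 ± 0.06, adjusted p = 0.857, edgeR). Of 9 pro-apoptotic members 4 were higher and 1 lower. BMF, which frees executioners by binding BCL2, rose from 15.5, 13.7 and 10.97 to 94.9, 114 and 111 (3.00 ± 0.20, adjusted p = 1.54e-10, edgeR). BCL2L11 (BIM), which ERK marks for degradation as a protein, rose from 119, 125 and 121 to 178, 176 and 177 (0.54 ± 0.07, adjusted p = 2.80e-07, edgeR). PMAIP1 (NOXA) fell from 64.8, 63.9 and 59.4 to 32.4, 33.5 and 28.1 (-1.001 ± 0.12, adjusted p = 3.51e-08, edgeR). Compared with VTP-50469 alone BMF was higher by 1.65 ± 0.18 (adjusted p = 4.63e-07, edgeR) and PMAIP1 lower with a log2 difference of -1.57 ± 0.12 (adjusted p = 1.38e-11, edgeR). p53 targets were higher in 13 of 23 and lower in 4 (median 0.51). MDM2, which destroys p53, rose from 122, 118 and 114 to 259.9, 313 and 293 CPM (1.29 ± 0.07, adjusted p = 1.98e-14, edgeR). SESN2, a target of ATF4 as well as p53, fell from 157, 158 and 154 to 55.7, 32.5 and 40.7 (-1.86 ± 0.13, adjusted p = 6.01e-11, edgeR). Polyadenylated histone transcripts, the form that cells outside S phase make, were higher in 8 of 12 tested and lower in 0 (median 2.83). HIST1H2AC rose from 6.90, 7.49 and 6.14 to 157, 201 and 173 CPM (4.69 ± 0.22, adjusted p = 7.07e-12, edgeR). HIST1H2BK rose from 6.90, 8.24 and 9.10 to 64.7, 73.8 and 58.0 (3.02 ± 0.15, adjusted p = 9.47e-16, edgeR), and 9 of 12 were also higher than with VTP-50469 alone. Reads of near-identical histone genes may be split between copies.

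Lipid and sugar genes were lower in part. Of 29 cholesterol and fatty acid synthesis genes 16 were lower and 4 higher (median -0.42), and the higher calls numbered 1 without DMSO day 6 replicate 1 and 2 without either combination day 6 replicate 1 or DMSO day 6 replicate 3. The desaturase SCD fell from 454, 456 and 419 to 155, 138 and 115 CPM (-1.70 ± 0.10, adjusted p = 7.27e-14, edgeR). Acetyl-CoA carboxylase (ACACA) fell from 127, 136 and 135 to 56.4, 50.1 and 43.9 (-1.40 ± 0.09, adjusted p = 1.76e-13, edgeR). SREBF1, the factor that drives them, fell from 195, 188 and 194 to 36.8, 48.3 and 56.3 (-2.03 ± 0.15, adjusted p = 1.78e-09, edgeR). Against VTP-50469 alone 23 of 29 were lower and 0 higher. Glycolysis genes had 13 of 25 lower and 5 higher than DMSO, and 19 lower and 3 higher than VTP-50469 alone. The calls higher than DMSO numbered 3 without any one of combination day 6 replicate 3, DMSO day 6 replicate 1 or DMSO day 6 replicate 3. The lactate carrier SLC16A1 fell from 161, 161 and 145 to 62.8, 62.9 and 61.0 (-1.32 ± 0.09, adjusted p = 6.23e-13, edgeR). The pyruvate dehydrogenase kinase PDK1 fell from 64.9, 65.0 and 64.3 to 27.4, 23.3 and 17.6 (-1.51 ± 0.12, adjusted p = 8.13e-12, edgeR). TXNIP, which restrains glucose uptake, rose from 943, 937 and 844 to 1743, 1851 and 1761 (0.97 ± 0.07, adjusted p = 5.55e-12, edgeR). At day 6 8 glycolysis genes had a higher effect than at day 3 and 0 a lower one, and the first count was 5 with library totals as scaling. Pyruvate kinase (PKM) differed by 0.67 ± 0.10 (adjusted p = 0.000334, edgeR). ABCA1, which exports cholesterol, was at 42.2, 37.1 and 35.0 CPM with the combination at day 3 and 6.41, 8.42 and 8.53 at day 6, against 18.8, 22.9 and 19.6 and 22.1, 24.5 and 22.4 in the DMSO of each day, a difference of -2.46 ± 0.25 (adjusted p = 9.93e-07, edgeR). In NOMO1 its effect differed by 6.68 ± 0.30 (adjusted p = 1.60e-20, edgeR). Of 26 Polycomb and DNA methylation genes 11 were higher and 8 lower. The maintenance methyltransferase DNMT1 fell from 399, 379.9 and 416 to 164, 159.8 and 150.2 CPM (-1.33 ± 0.08, adjusted p = 1.98e-14, edgeR). EZH2, the Polycomb methyltransferase, fell from 72.4, 72.2 and 77.7 to 33.2, 33.2 and 29.8 (-1.21 ± 0.09, adjusted p = 8.48e-12, edgeR).

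Surface receptors and secreted factors moved both ways, with more receptors called higher than lower. Of 23 integrins and adhesion receptors 12 were higher and 6 lower. ITGB7, an integrin of mucosal homing, rose from 3.48, 3.00 and 2.85 to 43.2, 42.3 and 47.3 CPM (3.83 ± 0.21, adjusted p = 7.62e-15, edgeR). PECAM1, a junction protein of leukocytes and endothelium, rose from 14.6, 13.9 and 14.3 to 129, 147 and 131 (3.25 ± 0.31, adjusted p = 3.64e-07, edgeR). ITGAL (CD11a) fell from 263, 264 and 254 to 138, 125 and 153 (-0.91 ± 0.10, adjusted p = 2.12e-08, edgeR). Of 21 chemokine and inflammatory receptors 10 were higher and 3 lower. CXCR4, the marrow homing receptor, stood at 194, 194 and 177 CPM in the DMSO libraries, 95.7, 96.0 and 86.9 with VTP-50469 alone and 397, 419 and 392 with the combination, which was higher than DMSO by 1.10 ± 0.13 (adjusted p = 8.21e-07, edgeR) and than VTP-50469 alone by 2.12 ± 0.14 (adjusted p = 2.62e-10, edgeR). 12 of the 21 receptors were higher than with VTP-50469 alone and 1 lower. Of 21 chemokines and cytokines 5 were higher and 5 lower, against backgrounds of 23.1% and 26.5%. CCL5 fell from 206, 199.9 and 213 to 62.8, 85.1 and 55.7 CPM (-1.60 ± 0.10, adjusted p = 5.58e-14, edgeR). The neutrophil attractant CXCL8 fell from 107, 94.8 and 87.8 to 18.7, 14.6 and 17.1 (-2.52 ± 0.19, adjusted p = 4.64e-10, edgeR). TNF fell from 53.9, 44.0 and 47.1 to 16.5, 8.62 and 10.7 (-2.02 ± 0.19, adjusted p = 1.84e-09, edgeR). TNFSF13B (BAFF), a survival factor of B cells, rose from 7.20, 6.51 and 6.09 to 56.9, 60.6 and 51.1 (3.09 ± 0.16, adjusted p = 1.61e-15, edgeR). TNFSF10 (TRAIL), a death ligand induced by interferon, rose from 16.9, 19.1 and 18.3 to 101, 131 and 103 (2.62 ± 0.20, adjusted p = 2.22e-09, edgeR). Toll-like receptor pathway genes had 10 of 15 higher (6 with only the compared groups in the fit) and 4 lower, with the adaptor MYD88 changed by 1.45 ± 0.11. Among 30 collagen and matrix genes 10 were higher and 6 lower, the gelatinase MMP2 rising from 119.8, 118 and 119 to 406, 442 and 449 (1.87 ± 0.09, adjusted p = 9.55e-16, edgeR). COL8A2 fell from 20.1, 18.1 and 18.8 to 2.22, 0 and 0.758 (-4.26 ± 0.46, adjusted p = 1.30e-07, edgeR).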

How the data were processed

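A single table of raw counts per gene was deposited by the authors. It covers polyadenylated RNA, sequenced as paired ends without strand information, so reads of a gene and of an antisense partner cannot be told apart. Per the submitters' processing notes, the tools used were DESeq2 1.44.0, featureCounts (Subread 2.0.6), STAR 2.11a, MultiQC 1.14 and FastQC 0.11.9, with genome build hg38. Of 58870 rows, 1 had an empty cell and was dropped. Of the 58869 kept, 58586 matched GENCODE release 29, the source of printed gene positions on GRCh38. 3 columns of per-sample values that could not be tied to 1 sample were not used.

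The counts were tested with edgeR 4.0.16 (R 4.3.3; filterByExpr, TMM scaling, robust quasi-likelihood test, Benjamini-Hochberg adjustment, threshold 0.05). The 21 OCI-AML3 libraries were fitted as 7 group means, and the comparison between lines used all 42. SE is the fold change divided by the root of F. CPM are counts scaled by TMM-adjusted library totals; sums of marker genes use unscaled totals. A gene at 0 in a group was compared against a floor of 3 counts over the group; such bounds and 95% intervals cover counting error only. Alternatives were DESeq2 1.42.0, other scalings and filters, a replicate block, fewer groups in the fit, no mitochondrial genes and DMSO of day 3 as control. Each library of the compared groups was also left out in turn. Libraries of the other groups in a fit were never left out singly. The scripts were tested on simulated data.

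Genes were named by rule: the 10 largest rises and 10 largest falls among called genes with 5 CPM in 1 group and no overlap, per gene list up to 6 called members (those of lowest adjusted p) and 2 abundant uncalled ones, and a followed set. Exceptions are stated. The comparison, the gene lists and the members were chosen with earlier results of these data known.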

Additional observations from a re-analysis of the deposited data

Results flagged for a closer look

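Several effects of the combination differed between groups by the interaction test of edgeR (adjusted p under 0.05). In OCI-AML3 the effect at day 6 minus that at day 3, as a log2 difference, was positive for B2M (0.60), BST2 (0.85), CCND1 (1.65), CD74 (0.86), E2F1 (0.98), LYZ (1.37), MYC (0.84), PKM (0.67), S100A9 (1.61) and SPRY4 (1.55), and negative for ABCA1 (-2.46), FLT3 (-0.73), PSAT1 (-1.51) and SLC7A11 (-0.91). At day 6 the NOMO1 effect minus the OCI-AML3 effect was positive for ABCA1 (6.68), ATF4 (2.42), CD14 (9.60), CD36 (4.61) and CYBB (3.28), and negative for HOXA9 (-2.36), IFIT1 (-7.35), MEF2C (-4.35), MYC (-1.35) and S100A8 (-4.92). The adjusted p of each stands beside its levels in the results. IFIT1 was under 1 CPM in every NOMO1 library of these groups, so its difference rests on OCI-AML3. No group of the series has 4 or more libraries, so no single library could be tested as an outlier.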

How the results depend on the processing

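Over all alternatives run, 3141 to 3989 genes were called higher and 3502 to 4567 lower against DMSO, 2273 to 3157 and 2905 to 4325 against VTP-50469 alone, and 2652 to 3589 and 2719 to 3978 between lines. These counts stayed within 1.5 times of the reported ones. The day difference did not. Its 335 higher and 188 lower calls became 162 and 584 with library totals, 418 and 285 without a filter and 493 and 324 with DESeq2, and leaving out 1 library gave 163 to 417 and 76 to 306. The cause was not tested. Fits without 1 library also test more genes, since the filter follows the smallest group. The replicate number as a block gave 3678 higher and 4327 lower calls against DMSO, 2639 and 4011 against VTP-50469 alone, 324 and 168 between days and 3457 and 3011 between lines. Deviations of same-numbered libraries had correlations of -0.0155 to 0.0279 between the combination and either DMSO or VTP-50469 alone, all at day 6. With 3 libraries per group these values cannot decide whether the numbers pair libraries. The other groups were not compared in this way. Of 147 named genes 138 were called against DMSO, of which 2 lost the call under some alternative (CSF1R without replicate 3 of either group, and FLT3 without combination replicate 2 or 3 or DMSO replicate 1 or 3), and none changed direction in any comparison. The calls lost under some alternative were 11 of 120 against VTP-50469 alone, 10 of 33 between days and 13 of 111 between lines, and none of these is printed in the results with a test value. The mitochondrial share of counts in the combination libraries was 10.96 to 12.98% with 1 of them left out. Depth limits genes of few counts most, and these were scarcer with the combination. Genes expected at an equal depth of 15000000 counts were fewer with it too, 16717 to 17416 against 19925 to 20073 with DMSO.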

Other observations

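Some gene groups and single genes fell outside the comparisons described. Of 7 phagocyte oxidase genes, which make the superoxide of neutrophils and monocytes, 1 was higher with the combination than with DMSO and 2 lower. Of all genes tested 23.1% were higher and 26.5% lower than DMSO, and 16.7% higher and 24.6% lower than VTP-50469 alone. Cholesterol efflux and lipoprotein genes had 6 of 15 higher and 4 lower than DMSO, and 4 of 15 higher and 5 lower than VTP-50469 alone. The lower calls numbered 2 with a filter of 1 CPM in 3 libraries or with only the compared groups in the fit in the first comparison and 2 with only the compared groups in the fit in the second. NCAM1, an adhesion molecule of natural killer cells and of some leukaemias, stood at 218, 208 and 228 CPM in DMSO and 124, 145 and 133 with the combination (-0.70 ± 0.09, adjusted p = 4.18e-07, edgeR). The other T and NK cell markers summed to 1.275 to 3.185 CPM in DMSO and 4.24 to 6.68 with the combination. EBF1, a transcription factor of the B cell lineage, stood at 6.55, 5.47 and 6.80 CPM in DMSO and 26.1, 43.8 and 36.2 with the combination (2.49 ± 0.18, adjusted p = 1.46e-12, edgeR). VIM, vimentin, was the most abundant of the epithelial and stromal markers and rose from 531, 521 and 543 to 1013, 1194 and 1177 CPM (1.09 ± 0.08, adjusted p = 5.48e-12, edgeR). SNORD3A, a small nucleolar RNA that sequencing of polyadenylated RNA is not made to capture, stood at 0.177, 0.634 and 0.0548 CPM in the DMSO libraries, 9.71, 10.5 and 9.25 with VTP-50469 alone and 185, 288 and 90.8 with the combination.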
